A study of Arabidopsis thaliana with 18 samples.

Results

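The core and linker histone genes of Arabidopsis thaliana are 41 nuclear genes, chosen by locus identifier, among the 33602 genes counted in developing seeds. They comprise 5 H3.1, 8 H4, 4 canonical H2A and 10 H2B genes, named here the 27 replication-linked genes, then 3 H3.3, 3 H2A.Z, 2 H2A.X and 3 H2A.W genes, named the 11 replacement genes, and 3 genes of linker histone H1. The study asked which metabolic changes go with the raised seed oil of a badc1 badc3 double knockout, set against wild-type Col-0. BADC proteins resemble the biotin carrier of plastid acetyl-CoA carboxylase and restrain the enzyme. All 6 groups are developing seeds 9 to 10 days after flowering, from plants of 1 growth regime, with 3 polyA libraries each. COL0 (wild type) and badc-tdna13 (mutant) form a first set, and AtWT and AtWTtr (wild type) with AtBD and AtBDtr (mutant) form a second set. The study also pulled tagged ribosomes from seeds with a FLAG antibody, using RPL18 with a His-FLAG tag under a soybean glycinin promoter, in plants whose T1 seeds were screened for DsRed. The labels do not spell out "tr" or state which libraries carry the transgene, so these are called tr libraries. Nor do they say whether replicates were separate plants, so p-values measure the spread between these samples, which may be technical.

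Histones package DNA into nucleosomes, each an octamer of H2A, H2B, H3 and H4, and H1 binds the linker DNA between them. H3.1, H4 and the canonical H2A and H2B are made mainly in S phase and deposited behind the replication fork. Replacement variants are deposited outside replication as well. H3.3 is found on transcribed genes, H2A.Z at gene starts and responsive genes and H2A.W in heterochromatin, while H2A.X is spread through chromatin and phosphorylated at DNA breaks. In plants the replication-linked messages carry polyA tails, so polyA libraries capture them, and at this seed age embryo cells move from division to the filling of storage reserves.

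In the second set, depth was 16977673 to 32547007 counts per library, and all 41 genes passed the filter on low counts. The mean count over the 12 libraries reached 100 for 38 of them, 5 had fewer than 10 counts in some library, and 1, AT5G02570, had none in some libraries. Histone genes took 0.357% to 0.446% of the counts in AtWT, 0.313% to 0.373% in AtBD, 0.184% to 0.240% in AtWTtr and 0.189% to 0.203% in AtBDtr. The 10 most abundant genes took 24.1% to 35.6% of the counts in AtWT and AtBD and 46.0% to 55.4% in the tr libraries. Levels are given as CPM, the share of a library's counts scaled to the usual total with TMM factors. The seed label was checked on 4 storage genes of the embryo, which summed to 61589 to 77812 CPM in AtWT, 85409 to 112729 in AtBD, 205741 to 355358 in AtWTtr and 206247 to 317106 in AtBDtr. BADC1 and BADC3 had at most 3.13 and 0.697 CPM in the mutant libraries against at least 42.3 and 65.6 in the wild-type ones. In the first set, the COL0 and badc-tdna13 libraries numbered 2 held equal fragments at 17287 of 17287 loci with 20 or more on average, so both were left out of the main comparison there.

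The genes differ in ways that bear on the counts. The 5 H3.1 genes encode 1 protein sequence by the RefSeq annotation of TAIR10.1, and so do the 8 H4 genes, while the coding bases match at 80.3% to 89.5% of positions between H3.1 pairs and 78.9% to 98.1% between H4 pairs. The closest H3.1 and H3.3 proteins differ at 4 residues. The longest exactly shared transcript stretches are 160 bases between AT3G45930 and AT3G46320 and 137 bases between AT1G07660 and AT1G07820, both H4 pairs, so reads of these pairs may be divided or lost. The second set's counts ignored strand, so members that overlap another gene on either strand are uncertain. AT5G02570, an H2B gene, lies with all of its 522 bases inside HTA12 on the other strand. AT3G27360, an H3.1 gene, shares 328 bases with AT3G27380 on its own strand. HTB9, HTA3 and AT1G06760 share 249, 259 and 484 bases with their largest overlapping neighbour, HTA13 shares 79, and HTA9 and AT2G30620 share 21 each.

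Promoters are shown for 5 members that take different courses below, because histone promoters in plants are known for an octamer, CGCGGATC, and H2B promoters and others for a hexamer, ACGTCA. Each line gives the 250 bases before the annotated start of the gene (RefSeq, TAIR10.1), 5′ to 3′ on the gene's strand, with octamers and hexamers on either strand in capitals. AT1G09200 (H3.1) is read from chr1:2972335-2972584 on the minus strand, HTA10 (canonical H2A) from chr1:18926561-18926810 on the plus strand, HTA1 (canonical H2A) from chr5:22196037-22196286 on the plus strand, HTB9 (H2B) from chr3:16898014-16898263 on the minus strand and AT4G40040 (H3.3) from chr4:18558946-18559195 on the minus strand.
AT1G09200: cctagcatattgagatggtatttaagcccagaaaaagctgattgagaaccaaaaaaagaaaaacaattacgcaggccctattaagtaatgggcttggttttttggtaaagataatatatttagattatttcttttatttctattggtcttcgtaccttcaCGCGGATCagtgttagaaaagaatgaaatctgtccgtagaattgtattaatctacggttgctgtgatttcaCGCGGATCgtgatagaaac
HTA10: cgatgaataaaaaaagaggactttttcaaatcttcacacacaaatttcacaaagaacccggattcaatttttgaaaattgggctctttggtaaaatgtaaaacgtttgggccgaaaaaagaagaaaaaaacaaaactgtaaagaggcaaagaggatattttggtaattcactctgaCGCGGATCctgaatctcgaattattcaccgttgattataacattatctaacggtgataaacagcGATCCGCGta
HTA1: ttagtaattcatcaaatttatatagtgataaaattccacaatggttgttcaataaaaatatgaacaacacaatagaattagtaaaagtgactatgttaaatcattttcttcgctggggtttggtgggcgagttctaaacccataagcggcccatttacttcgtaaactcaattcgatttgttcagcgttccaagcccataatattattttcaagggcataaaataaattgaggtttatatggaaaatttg
HTB9: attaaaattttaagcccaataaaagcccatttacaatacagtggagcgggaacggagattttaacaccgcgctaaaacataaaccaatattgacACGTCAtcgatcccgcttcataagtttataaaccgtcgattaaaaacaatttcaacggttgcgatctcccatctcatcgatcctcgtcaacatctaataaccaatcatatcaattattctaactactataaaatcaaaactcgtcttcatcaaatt
AT4G40040: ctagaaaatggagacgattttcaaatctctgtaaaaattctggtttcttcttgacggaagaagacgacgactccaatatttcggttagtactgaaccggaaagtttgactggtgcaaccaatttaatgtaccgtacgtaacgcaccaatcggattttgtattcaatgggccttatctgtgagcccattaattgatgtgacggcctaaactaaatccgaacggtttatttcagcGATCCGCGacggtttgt

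The octamer was present in 37 of 27443 promoters of protein-coding genes (0.135%) and in 7 of 27 replication-linked, 2 of 11 replacement and 1 of 3 linker histone promoters. It occurred in 3 of 5 H3.1, 2 of 8 H4 and 2 of 4 canonical H2A promoters and in 0 of 10 H2B promoters. AT1G09200 and HTA10 carry 2 copies each. The hexamer was present in 2110 of 27443 promoters (7.69%) and in 8 of 10 H2B promoters. HTA1 and the H2B gene HTB4 had neither motif in this window. A pair of motifs of E2F factors, regulators of S-phase genes, was searched on both strands as well: TTTCCCGC was in 170 promoters (0.619%) and TTTGGCGC in 99 (0.361%), with either in 263 (0.958%), and in 2 of 27 replication-linked promoters, both of H4 genes. A match of letters is a description and does not show that a factor binds.

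Between tr libraries and the others in wild type, most H3.1 and canonical H2A genes and part of the H4 and H2B genes were lower, while H3.3 and H1 genes did not pass the test. Of the 41 histone genes, 20 were lower and 2 higher in AtWTtr than in AtWT (edgeR quasi-likelihood test, Benjamini-Hochberg adjusted p under 0.05), where 34.1% of all 19376 genes tested were called, 19% lower and 15.2% higher. The median log2 fold change was -0.69 over the histone genes and -0.04 over all genes. By kind, 16 of 27 replication-linked genes were lower and 2 higher, 4 of 11 replacement genes were lower and 0 higher, and 0 of 3 linker genes were called. Without regard to the test, AtWTtr lay wholly below AtWT for 23 members and wholly above it for 4, where 27.8% and 20.9% of all genes did so.

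In the mutant, AtBDtr against AtBD gave 20 lower and 2 higher of 41, where 29.7% of all genes were called, 16.8% lower and 12.9% higher. Here 15 replication-linked and 5 replacement genes were lower, 2 replication-linked genes were higher and 0 of 3 linker genes were called. AtBDtr lay wholly below AtBD for 24 members and wholly above it for 2, where 25.5% and 21.4% of all genes did so. The wild-type and mutant contrasts hold no library in common, but they were fitted together with a shared estimate of the spread. Of the 22 genes called in each genotype, 20 were called in both, in the same direction. The share of all genes called in both was not counted. The labels do not say whether the tr libraries hold bulk seed RNA or RNA from tagged ribosomes. A difference in the RNA sampled, fewer cells that make a message and less message per cell cannot be told apart.

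**Figure D1:**
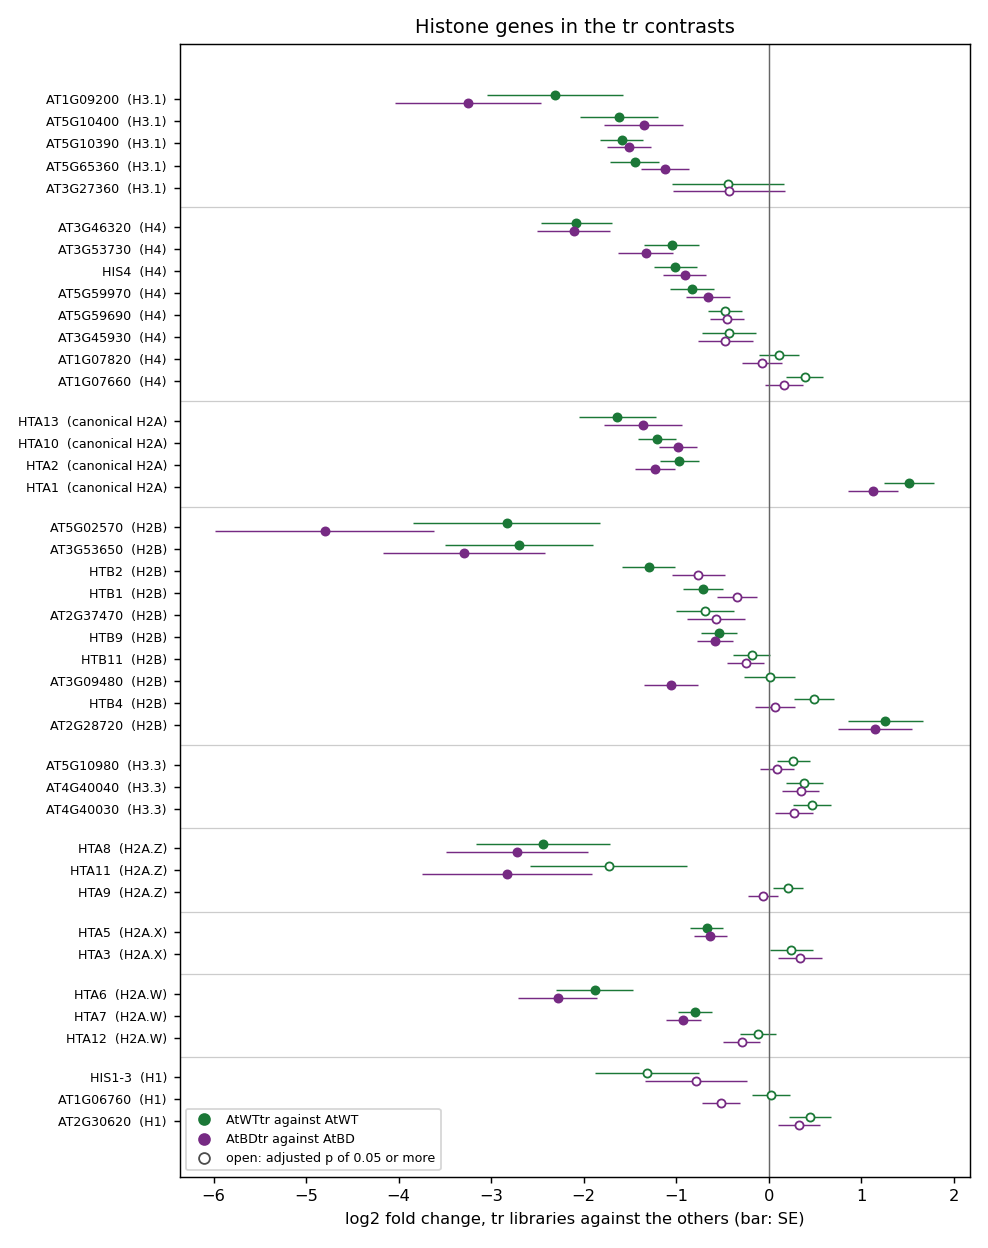
log2 fold change (x axis, bars show SE) of each of the 41 histone genes, grouped by class on the y axis, in AtWTtr against AtWT (green) and AtBDtr against AtBD (purple), 3 libraries per group. Filled points passed the adjusted p of 0.05. All 5 H3.1 genes lie left of 0 in both genotypes, and 4 of them are filled. The filled points of HTA1 and AT2G28720 lie right of 0, and the H3.3 points are open.

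Among the H3.1 genes, 4 of 5 fell in both genotypes. AT5G10390 (chromosome 5, 3268847 to 3269594) had 14.6, 18.2 and 16.4 CPM in AtWT, 8.57, 8.35 and 11.4 in AtBD, 5.19, 4.88 and 6.29 in AtWTtr and 3.05, 3.46 and 3.42 in AtBDtr. Its 4 groups did not overlap. It differed by -1.59 on the log2 scale (SE 0.23, adjusted p = 8.52e-05) in the wild-type tr contrast and by -1.51 (SE 0.24, adjusted p = 0.000215) in the mutant, by edgeR.

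AT5G65360, the H3.1 gene with the highest mean count, had 45.5, 59.1 and 39 CPM in AtWT, 32.9, 26 and 20.1 in AtBD, 21, 12 and 19.7 in AtWTtr and 8.92, 13.3 and 14.1 in AtBDtr. The tr libraries lay below the other libraries of their genotype, with edgeR log2 fold changes of -1.45 (SE 0.26, adjusted p = 0.000491) and -1.12 (SE 0.26, adjusted p = 0.00439). AT1G09200, whose promoter is shown above, had 42.4, 74.9 and 40.4 CPM in AtWT, 32.1, 27.7 and 28.9 in AtBD, 17.5, 4.94 and 9.37 in AtWTtr and 0.0782, 3.23 and 5.73 in AtBDtr. Its tr libraries were also all below the others but spread widely, from 4.94 to 17.5 CPM in wild type. It stood at -2.31 (SE 0.73, adjusted p = 0.036) and -3.25 (SE 0.79, adjusted p = 0.0125) on the log2 scale in the edgeR fits. The wild-type call was lost in 7 of 14 alternatives, among them those without AtWT replicate 1, 2 or 3 or AtWTtr replicate 2 or 3, with an adjusted p of up to 0.102.

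AT5G10400 fell by 1.62 and 1.35 on the log2 scale, and its mutant call was lost in 6 of 14 alternatives (adjusted p up to 0.0862 in edgeR). These were no filter on low counts, a replicate block, and leaving out AtBD replicate 1 or 3 or AtBDtr replicate 1 or 2. AT3G27360, which stayed between 0.937 and 5.36 CPM in every library, was not called (log2 fold changes -0.44 and -0.43).

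Of the 8 H4 genes, 4 fell in both genotypes: AT3G46320, HIS4, AT3G53730 and AT5G59970. AT3G46320 had 13.1, 25.4 and 12.8 CPM in AtWT, 9.26, 8.47 and 8.28 in AtBD, 5.19, 1.6 and 5.38 in AtWTtr and 2.03, 1.67 and 2.31 in AtBDtr. The tr libraries lay below the others of their genotype, by -2.08 (SE 0.38, adjusted p = 0.000586) and -2.11 (SE 0.40, adjusted p = 0.000935) on the log2 scale in edgeR. AT3G53730 lost its wild-type call without AtWT replicate 2 or AtWTtr replicate 3 (adjusted p up to 0.0743), and AT5G59970 without AtWT replicate 2 (0.0618). In the mutant, AT5G59970 lost its call in 7 of 14 alternatives (adjusted p up to 0.164 in edgeR). These were a replicate block, only the libraries compared, and leaving out any 1 of the AtBD libraries or of AtBDtr replicates 1 and 3.

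AT5G59690, the most counted H4 gene, had 66.1, 87.5 and 62 CPM in AtWT, 54.1, 56 and 56.2 in AtBD, 50.7, 44 and 60.6 in AtWTtr and 41.8, 44.1 and 35.7 in AtBDtr. It was at -0.47 and -0.45 on the log2 scale and was not called, although its tr and other libraries did not overlap in either genotype. AT3G45930, the gene that shares the longest stretch with AT3G46320, was at -0.43 and -0.47 and was not called. AT1G07660 and AT1G07820 were not called either, with log2 fold changes between -0.07 and 0.39, although all 8 genes encode the same protein. The share of H4 transcripts per length that came from AT1G07660 was 9.51% ± 0.937 in AtWT and 17.3% ± 2.65 in AtWTtr, and from AT1G07820 it was 12.5% ± 0.356 and 19% ± 0.395 (SD, n = 3 each).

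The canonical H2A genes moved apart. HTA1 (chromosome 5, 22196287 to 22197492) had 61.6, 90.7 and 68 CPM in AtWT, 96.9, 91.7 and 107 in AtBD, 177, 219 and 234 in AtWTtr and 252, 280 and 116 in AtBDtr. Every tr library lay above every other library of either genotype. It rose by 1.52 (SE 0.27, adjusted p = 0.000452) and 1.13 (SE 0.27, adjusted p = 0.00484) on the log2 scale in edgeR. With plain library totals its mutant value was no longer called (adjusted p = 0.236).

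HTA10, the canonical H2A gene with the octamer copies shown above, had 54.1, 70.2 and 55.6 CPM in AtWT, 55.7, 49.2 and 39.2 in AtBD, 27.8, 20.6 and 29.2 in AtWTtr and 27.9, 23.8 and 21.3 in AtBDtr. Its tr libraries lay below all others, and it fell by 1.21 and 0.98 on the log2 scale (SE 0.20 each, adjusted p = 0.000252 and 0.00179 in edgeR). HTA2 had 69, 102 and 68.8 CPM in AtWT, 74.8, 73 and 97.7 in AtBD, 43.7, 35.8 and 43.1 in AtWTtr and 28.3, 41.7 and 34.3 in AtBDtr. Its tr groups were wholly below the others of their genotype, at -0.97 (SE 0.21, adjusted p = 0.00221) and -1.23 (SE 0.21, adjusted p = 0.000426) on the log2 scale. HTA13 fell as well (-1.64 and -1.36), and its mutant call was lost without AtBD replicate 1 or 2 or AtBDtr replicate 1 or 2 (adjusted p up to 0.0925 in edgeR). HTA1 gave 30.1% ± 1.25 of the canonical H2A level per length in AtWT, 39.7% ± 1.06 in AtBD, 72.8% ± 5.55 in AtWTtr and 74.5% ± 8.73 in AtBDtr (SD, n = 3 each). Such a share is taken within a library and does not depend on how libraries are scaled.

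**Figure D2:**
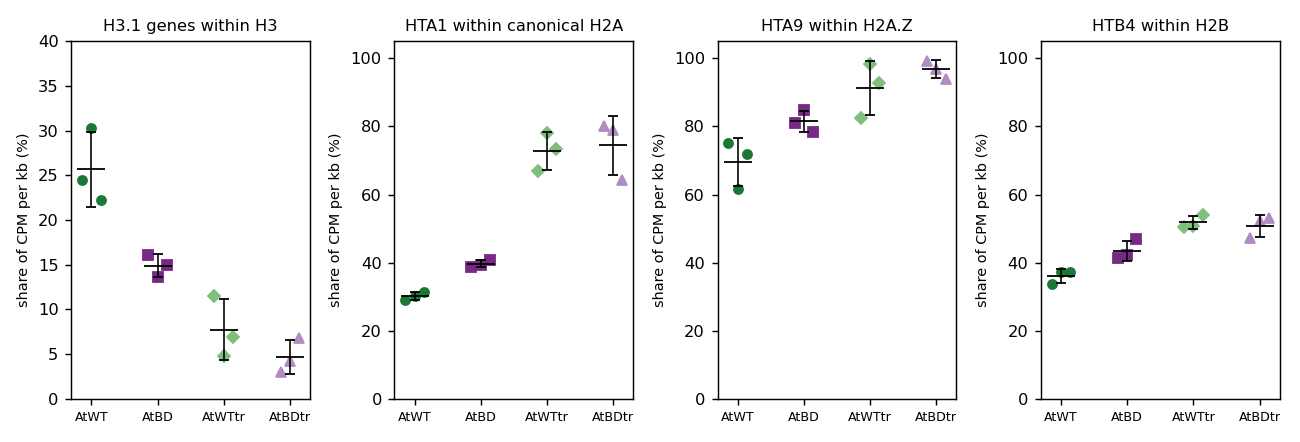
Share (%) of a class's summed CPM per kb that came from H3.1 genes among all H3 genes, from HTA1 among canonical H2A, from HTA9 among H2A.Z and from HTB4 among H2B, in each library of 4 groups (points), with mean and SD (bars, n = 3). The H3.1 share is 25.7% in AtWT and 4.69% in AtBDtr on average, and the HTA1 share is above 64% in every tr library.

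Of the 10 H2B genes, 5 fell and 1 rose in wild type, and 4 fell and 1 rose in the mutant. The gene that rose, AT2G28720, had 12.3, 18.5 and 17.3 CPM in AtWT, 20, 21.7 and 17.4 in AtBD, 23.2, 62.3 and 29.5 in AtWTtr and 65.3, 46 and 20.4 in AtBDtr. The groups overlapped in the mutant but not in wild type, with log2 fold changes of 1.26 (SE 0.40, adjusted p = 0.0279) and 1.15 (SE 0.40, adjusted p = 0.0455) in edgeR. The wild-type call was lost in 6 of 14 alternatives, including those without any 1 of the AtWT libraries or AtWTtr replicate 2 (adjusted p up to 0.459). The mutant call was lost in 8 of 14 alternatives, including those without any 1 of the AtBD libraries or AtBDtr replicate 1 or 2 (adjusted p up to 0.413).

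HTB4, which had the highest CPM per kb of all members in AtWT, had 246, 410 and 298 CPM in AtWT, 338, 314 and 433 in AtBD, 477, 450 and 409 in AtWTtr and 377, 430 and 329 in AtBDtr. It was not called (0.49 and 0.07 on the log2 scale). Its share of H2B per length was 36% ± 2.13 in AtWT, 43.5% ± 2.94 in AtBD, 51.8% ± 1.98 in AtWTtr and 50.9% ± 3.23 in AtBDtr. HTB2 had 53.5, 78.2 and 49 CPM in AtWT, 34.9, 34 and 38.9 in AtBD, 35.9, 23.4 and 14 in AtWTtr and 27.8, 18 and 17.9 in AtBDtr. It passed in wild type alone (-1.30, SE 0.29, adjusted p = 0.00279, edgeR), with -0.76 in the mutant, and the genotype difference of the ratio was 0.54 (adjusted p = 1).

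HTB9 fell by 0.54 and 0.58 on the log2 scale. Its wild-type call was lost in 7 of 14 alternatives (adjusted p up to 0.192 in edgeR). These were no filter on low counts, a replicate block, only the libraries compared, and leaving out AtWT replicate 2 or 3 or AtWTtr replicate 2 or 3. Its mutant call was lost with a replicate block and without any 1 of the AtBD libraries or AtBDtr replicate 1 or 3 (up to 0.106). HTB1 passed in wild type (-0.71, against -0.34 in the mutant), a call lost without AtWT replicate 3 or AtWTtr replicate 2 (adjusted p up to 0.078 in edgeR). AT3G09480 passed in the mutant alone (-1.06, against 0.01 in wild type), and the genotype difference of this ratio, -1.07 (SE 0.40), had an adjusted p of 1.

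The 2 H2B genes with the largest fitted falls are scarce. AT3G53650 had 3.22, 8.81 and 8.94 CPM in AtWT, 4.07, 2.97 and 5.01 in AtBD, 2.87, 0.0642 and 0.28 in AtWTtr and 0.235, 0.461 and 0.496 in AtBDtr. This amounts to 731 counts over the 3 AtWT libraries and 47 over AtWTtr, of which 42 were in replicate 1, and 296 over AtBD and 20 over AtBDtr. Its tr level was 16.3% of AtWT (95% exact interval 11.9% to 21.9%) and 10.4% of AtBD (6.26% to 16.3%). AT5G02570, which overlaps HTA12, had 1.7, 2.12 and 1.1 CPM in AtWT, 2.58, 1.66 and 1.74 in AtBD, 0, 0.193 and 0.489 in AtWTtr and 0.235, 0 and 0 in AtBDtr. This amounts to 186 counts in AtWT and 10 in AtWTtr (13.7%, 6.44% to 25.7%), and 149 in AtBD and 3 in AtBDtr (3.1%, 0.631% to 9.23%). These intervals cover counting error only, and the counts of AT5G02570 remain uncertain because the whole gene lies inside HTA12. Both genes were called in both genotypes, but in wild type AT3G53650 lost its call without AtWT replicate 2 or 3 or AtWTtr replicate 3 (adjusted p up to 0.0612 in edgeR). AT5G02570 lost its wild-type call with a replicate block and without any 1 of the AtWT libraries or AtWTtr replicate 1 or 2 (adjusted p up to 0.0994 in edgeR).

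The 3 H3.3 genes were not called in either tr contrast. AT4G40040 (chromosome 4, 18557149 to 18558945) had 349, 371 and 375 CPM in AtWT, 413, 427 and 424 in AtBD, 360, 555 and 514 in AtWTtr and 579, 582 and 445 in AtBDtr. The groups overlapped in wild type and not in the mutant, and it stood at 0.38 (SE 0.20, adjusted p = 0.146) and 0.35 (SE 0.20, adjusted p = 0.205) on the log2 scale in edgeR. Its neighbour AT4G40030 had 201, 249 and 233 CPM in AtWT, 259, 256 and 258 in AtBD, 285, 323 and 337 in AtWTtr and 320, 390 and 221 in AtBDtr. It was at 0.47 (adjusted p = 0.0891) and 0.27 (adjusted p = 0.346) in the same edgeR fits. AT5G10980 had 135, 145 and 143 CPM in AtWT, 161, 158 and 140 in AtBD, 168, 158 and 182 in AtWTtr and 162, 197 and 130 in AtBDtr, at 0.27 and 0.09 on the log2 scale.

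All 6 H3.3 values were positive with TMM and with RLE scaling and none passed, while with plain library totals all 6 were negative, and 4 of them passed, 3 in wild type. Under that scaling the median of all genes was -0.99 in wild type and -0.73 in the mutant, and the H3.3 median lay 0.40 and 0.25 above it, against 0.42 and 0.30 with TMM. The H3.1 medians lay 1.55 and 1.32 below the median of all genes with TMM and 1.5 and 1.29 below it with plain totals. With plain totals 96% of the 10597 genes called in wild type and 94.6% of the 7807 in the mutant were lower, against 55.5% and 56.7% with TMM.

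Per length, H3.1 made up 24.5%, 30.3% and 22.2% of all H3 transcripts in AtWT, 16.1%, 13.6% and 15.0% in AtBD, 11.5%, 4.80% and 6.92% in AtWTtr and 2.99%, 4.28% and 6.80% in AtBDtr. Within each genotype the tr libraries lay below the others, and AtBD lay below AtWT without overlap. The tr groups of the 2 genotypes overlapped. The H3.1 sum was 205 ± 53.2 CPM per kb in AtWT, 116 ± 11.7 in AtBD, 62.4 ± 22.7 in AtWTtr and 37.2 ± 10.5 in AtBDtr, and the H3.3 sum was 585 ± 33.9, 661 ± 11.7, 760 ± 88.6 and 788 ± 153 (SD, n = 3 each).

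**Figure D3:**
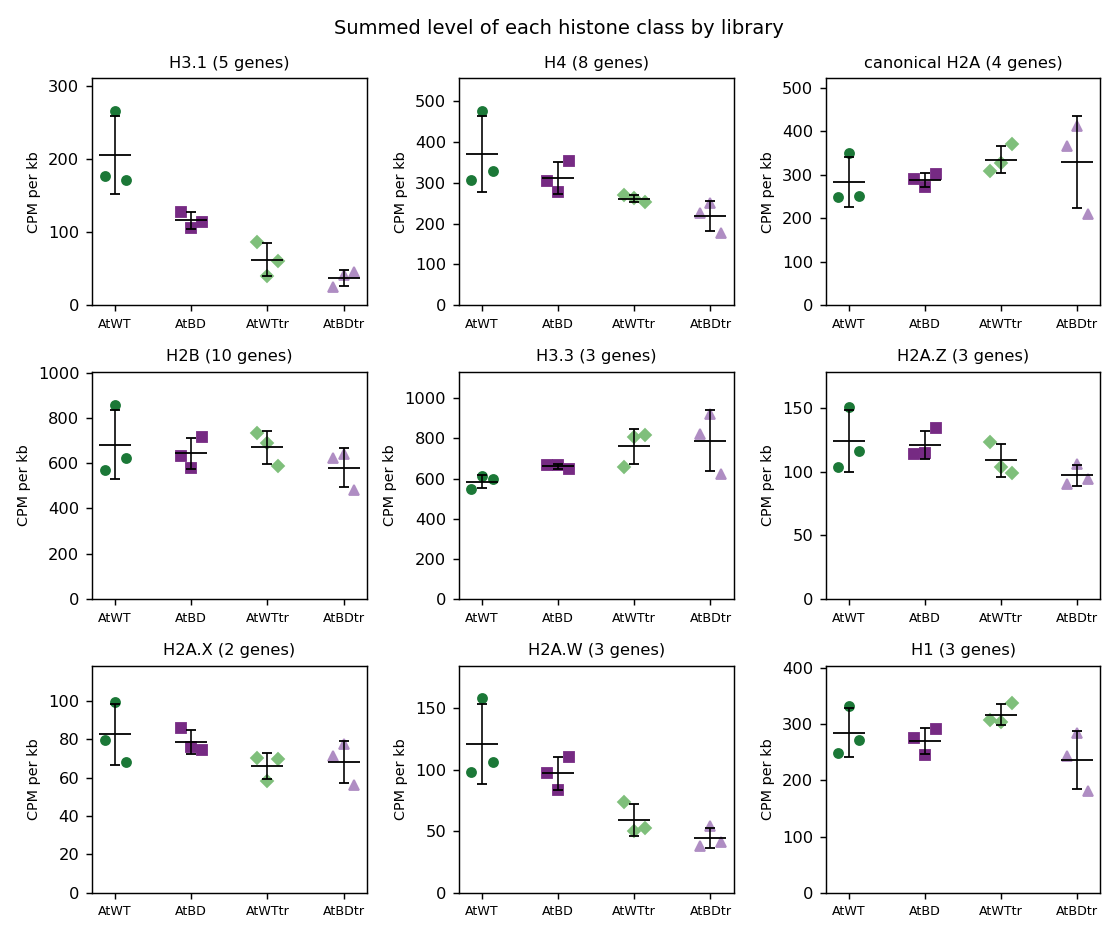
Summed CPM per kb of each histone class in the 12 libraries of the second set (points, by group), with mean and SD (bars, n = 3); each panel starts at 0. H3.1 runs from 205 in AtWT to 37.2 in AtBDtr and H2A.W from 121 to 44.6, while H2B lies between 581 and 682 on average in the 4 groups.

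Among the H2A variants, 4 of 8 fell in wild type and 5 of 8 in the mutant. HTA8, an H2A.Z gene, had 7.97, 18.4 and 11.1 CPM in AtWT, 4.88, 4.83 and 9.37 in AtBD, 4.37, 0.642 and 1.89 in AtWTtr and 0.156, 0.461 and 2.15 in AtBDtr. Its tr libraries were lower than all others, at -2.44 (SE 0.72, adjusted p = 0.0202) and -2.72 (SE 0.77, adjusted p = 0.0185) on the log2 scale in edgeR. Each call was lost in 3 of 14 alternatives (adjusted p up to 0.0771 in wild type and 0.0773 in the mutant, in edgeR). In both genotypes 1 of these was no filter on low counts. The others left out AtWT replicate 2 or AtWTtr replicate 3, and AtBD replicate 3 or AtBDtr replicate 2. HTA11 had 17.9, 39.4 and 21.3 CPM in AtWT, 17.1, 12.7 and 19.3 in AtBD, 17.5, 0.835 and 5.31 in AtWTtr and 0.469, 2.83 and 3.42 in AtBDtr. It was at -1.73 (SE 0.85, adjusted p = 0.146) in wild type and -2.83 (SE 0.92, adjusted p = 0.0438) in the mutant, a call lost in 8 of 14 alternatives, among them those without any 1 of the 6 mutant libraries (adjusted p up to 0.105). HTA9, the most counted H2A.Z gene, had 66.1, 78.7 and 70.6 CPM in AtWT, 77.8, 82.3 and 88.3 in AtBD, 85.9, 86 and 77.3 in AtWTtr and 75.9, 86.7 and 74.7 in AtBDtr. It was not called (0.21 and -0.07 on the log2 scale), and it made up 69.7% ± 7.05 of H2A.Z per length in AtWT, 81.5% ± 3.23 in AtBD, 91.3% ± 8.05 in AtWTtr and 96.8% ± 2.66 in AtBDtr.

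In H2A.W, the heterochromatin variant, HTA6 and HTA7 fell. HTA6 had 33.4, 70.2 and 41.8 CPM in AtWT, 32.6, 25.8 and 40.6 in AtBD, 21.9, 8.35 and 9.23 in AtWTtr and 3.68, 9.46 and 7.11 in AtBDtr. The tr libraries lay below all others, at -1.88 (SE 0.42, adjusted p = 0.00369) and -2.28 (SE 0.43, adjusted p = 0.00155) on the log2 scale in edgeR. HTA7 had 31.1, 37.8 and 26.8 CPM in AtWT, 28.9, 25.9 and 30.1 in AtBD, 19.1, 18.2 and 17.7 in AtWTtr and 16.8, 14.7 and 13.4 in AtBDtr. It was at -0.80 (adjusted p = 0.00343) and -0.92 (adjusted p = 0.00156) in the same edgeR fits. HTA12, the most counted H2A.W gene, had 33.5, 42.1 and 36.4 CPM in AtWT, 37.7, 34.8 and 39.5 in AtBD, 38.8, 31 and 33.5 in AtWTtr and 24, 39.9 and 27.3 in AtBDtr, and it was not called (-0.12 and -0.29 on the log2 scale).

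Of the H2A.X genes, HTA5 fell and HTA3 was not called. HTA5 had 60.5, 75 and 53.6 CPM in AtWT, 59.2, 55.6 and 52.3 in AtBD, 38.8, 40.3 and 39.7 in AtWTtr and 40.3, 38.1 and 29.5 in AtBDtr. It was at -0.67 and -0.63 on the log2 scale, and the mutant call was lost without AtBD replicate 1 or AtBDtr replicate 3 (adjusted p up to 0.0599 in edgeR). HTA3 had 20.1, 25.5 and 15.6 CPM in AtWT, 25.8, 20.6 and 21.6 in AtBD, 28.1, 17.4 and 27 in AtWTtr and 27.8, 34.5 and 23.7 in AtBDtr, at 0.24 and 0.34.

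The 3 H1 genes were not called in either tr contrast. AT1G06760 had 192, 247 and 213 CPM in AtWT, 216, 194 and 211 in AtBD, 226, 180 and 256 in AtWTtr and 137, 179 and 118 in AtBDtr. In AtBDtr its values lay below those of AtBD, and it was at 0.02 (SE 0.20, adjusted p = 0.944) and -0.52 (SE 0.20, adjusted p = 0.0648) on the log2 scale in edgeR. AT2G30620 had 128, 189 and 137 CPM in AtWT, 141, 119 and 168 in AtBD, 183, 241 and 195 in AtWTtr and 197, 210 and 131 in AtBDtr, at 0.45 and 0.33. HIS1-3, the stress-inducible H1, had 6.83, 6.22 and 5.83 CPM in AtWT, 4.15, 6.13 and 8.06 in AtBD, 2.05, 4.43 and 1.05 in AtWTtr and 6.1, 3.75 and 0.882 in AtBDtr. It was at -1.32 (adjusted p = 0.0823) and -0.79 (adjusted p = 0.305) in the same edgeR fits.

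Sums over each kind of gene were compared as well. Replication-linked genes summed to 1129, 1717 and 1211 CPM in AtWT, 1219, 1112 and 1369 in AtBD, 1307, 1252 and 1187 in AtWTtr and 1168, 1263 and 860 in AtBDtr, and all 4 groups overlapped with this TMM scaling. As plain shares of a library's counts they were 0.167% to 0.232% in AtWT, 0.138% to 0.177% in AtBD, 0.0759% to 0.113% in AtWTtr and 0.0789% to 0.0841% in AtBDtr. There the tr libraries lay below the others without overlap. The replacement shares did so too, at 0.141% to 0.157%, 0.132% to 0.146%, 0.0796% to 0.093% and 0.0856% to 0.0929% in the same order. So did the linker shares. With plain totals the median log2 fold change of all genes was -0.99 in wild type and -0.73 in the mutant. This fall is therefore not particular to replication-linked genes. Of the replication-linked mean of 1352 CPM in AtWT, HTA1 gave 73.4 and HTB4 318. Of that of 1248 CPM in AtWTtr, HTA1 and HTB4 gave 210 and 445. Replacement genes summed to 954, 1152 and 1028 CPM in AtWT, 1117, 1103 and 1123 in AtBD, 1067, 1239 and 1245 in AtWTtr and 1250, 1396 and 977 in AtBDtr. The ratio of the first sum to the second was 1.28 ± 0.179 in AtWT, 1.11 ± 0.106 in AtBD, 1.06 ± 0.143 in AtWTtr and 0.907 ± 0.0269 in AtBDtr (SD, n = 3 each). It was the highest in 1 library, AtWT replicate 2, at 1.49. These CPM sums are not per length, so the ratio is compared between libraries only.

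Promoter letters and the tr contrasts were set side by side. Of all genes, 19% were lower and 15.2% higher in wild type, and 16.8% and 12.9% in the mutant. Of the 10 members with an octamer, 6 were lower and 0 higher in wild type, against 14 lower and 2 higher of the 31 without. The counts were the same in the mutant. The median log2 fold change was -1.33 and -1.05 with the octamer and -0.67 and -0.58 without. The octamer follows class, with 3 of 5 H3.1, 2 of 4 canonical H2A and 0 of 10 H2B promoters carrying it. The part of each in this difference was not tested. Of the 11 members with a hexamer, 6 were lower and 1 higher in wild type and 4 and 1 in the mutant, against 14 and 1, and 16 and 1, of the 30 without. The medians were -0.69 and -0.57 with the hexamer and -0.73 and -0.72 without. AT5G10390, with the smallest adjusted p of all members in both contrasts, has neither octamer nor hexamer in its window, and AT4G40040, which was not called, has an octamer 17 bases before its start.

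The genotype comparisons called no member. In AtBD against AtWT, 0 of 41 passed in edgeR and in DESeq2, where edgeR called 0.0619% of all genes, 0.031% higher and 0.031% lower. The median log2 fold change was -0.32 over the replication-linked genes, 0.00 over the replacement genes, -0.07 over the linker genes and 0.00 over all genes. AtBD lay wholly below AtWT for 9 members and wholly above it for 3, where 10.9% and 8.79% of all genes did so. The H3.1 genes had the lowest class median, -0.83, and 4 of 5 were wholly lower.

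By gene, AT5G10390 was at -0.79 (SE 0.23, adjusted p = 0.425) and AT5G65360 at -0.86 (SE 0.26, adjusted p = 0.443) on the log2 scale in edgeR. The largest negative values were those of AT3G46320 (-0.98, SE 0.36, adjusted p = 0.637) and HTA8 (-0.97, SE 0.66, adjusted p = 0.997). The largest positive values were 0.42 for HTA1 (SE 0.27, adjusted p = 0.972) and 0.30 for AT2G28720. A p that misses the threshold does not show that the genotypes are alike.

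Between the tr groups, AtBDtr against AtWTtr also called 0 of 41 in edgeR and DESeq2. In edgeR, 0.0516% of all genes were called, 0.0155% higher and 0.0361% lower. Of the members, 34 had negative and 7 positive log2 fold changes, with a median of -0.23 against 0.01 over all genes. AtBDtr lay wholly below AtWTtr for 5 members and wholly above it for 0, where 2.94% and 4.25% of all genes did so. The lowest adjusted p, 0.706, was that of AT3G09480 (H2B), with 7.93, 7.13 and 5.45 CPM in AtWTtr and 3.44, 3.58 and 2.98 in AtBDtr (-1.04, SE 0.29, on the log2 scale in edgeR). Of the 5 H3.1 genes, AT5G10390 did not overlap between the groups (-0.72, SE 0.24, adjusted p = 0.968). HTA11 (-1.77) and AT1G09200 (-1.77) had the largest negative values, and HIS1-3 (0.49) and HTA3 (0.25) the largest positive ones.

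The genotype difference of the tr ratio called 0 of 41 members in edgeR and DESeq2, where edgeR called 0% of all genes. The largest positive differences were those of HTB2 (0.54) and HIS1-3 (0.53), and the largest negative ones those of AT5G02570 (-1.97) and HTA11 (-1.09), with an adjusted p of 1 each in edgeR.

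Genes of DNA replication and mitosis, known partners of histone synthesis in S phase and of division, were lower in tr libraries too. Of 16 tested replication genes of 17 listed, 10 fell and 1 rose in wild type, and 7 fell and 0 rose in the mutant, where 19% and 15.2% of all genes were lower and higher in wild type and 16.8% and 12.9% in the mutant. The list medians were -2.43 and -1.93, against -0.04 and -0.03 over all genes. PCNA2, a sliding clamp of DNA polymerase, had 10.9 ± 1.52 CPM in AtWT, 6.15 ± 1.46 in AtBD, 1.87 ± 0.806 in AtWTtr and 1.03 ± 0.579 in AtBDtr (tr log2 fold changes -2.55 and -2.57, adjusted p = 0.000141 and 0.000244 in edgeR). PCNA1 (-3.14 and -3.65) and the helicase subunits MCM2 (-3.73 and -2.18) and MCM3 (-2.67 and -2) fell in both genotypes. TSO2, a small subunit of ribonucleotide reductase, had 17.8 ± 1.3 CPM in AtWT, 9.07 ± 2.36 in AtBD, 4.11 ± 2.09 in AtWTtr and 2.47 ± 1.87 in AtBDtr, and fell by 2.12 and 1.85 on the log2 scale. RNR2A, another small subunit of that enzyme, was the 1 that rose (0.56, adjusted p = 0.0361 in edgeR), in wild type.

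Of 8 mitosis genes, 6 fell in wild type and 4 in the mutant, where 19% and 16.8% of all genes were lower, with list medians of -3.15 and -2.76. KNOLLE, a syntaxin of the forming cell plate, had 72.6 ± 23.9 CPM in AtWT, 33.1 ± 7.77 in AtBD, 4.47 ± 2.74 in AtWTtr and 2.91 ± 2.20 in AtBDtr (SD, n = 3 each). The kinase gene CDKB1;1 fell from 4.96 ± 1.21 to 0.0661 ± 0.0643 CPM in wild type and from 2.98 ± 0.588 to 0.485 ± 0.496 in the mutant. The cyclin gene CYCB1;2 (-3.94 and -3.16) and the aurora kinase gene AUR1 (-2.82 and -3.66) fell in both genotypes. All 8 mitosis genes lay lower in AtBD than in AtWT without overlap, where 10.9% of all genes did so. Their median was -1.26, against 0.00 over all genes, and 0 of them passed (lowest adjusted p = 0.715 in edgeR). Of the 16 replication genes tested, AtBD lay wholly below AtWT for 8 and wholly above it for 1, where 10.9% and 8.79% of all genes did so. The replication median was -0.75, with 3 positive values, and 0 passed.

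Of 19 genes of histone chaperones and chromatin assembly, 4 fell and 0 rose in wild type, and 3 fell and 2 rose in the mutant. Of all genes, 19% fell and 15.2% rose in wild type and 16.8% and 12.9% in the mutant, so the shares of this list that fell were close to the background. MSI1, a subunit of chromatin assembly factor 1 and of other complexes, fell from 37.3 ± 0.628 to 20.8 ± 0.791 CPM in wild type and from 42.5 ± 2.50 to 25.0 ± 0.791 in the mutant (-0.85 and -0.77, adjusted p = 0.000579 and 0.00164 in edgeR). In wild type the DNA methyltransferase gene MET1 (-1.56) and the remodeller gene DDM1 (-2.53) fell, and TSK, which had 0.921 ± 0.442 CPM in AtWT, had 0 in all AtWTtr libraries and passed. In the mutant ATXR6, a histone H3 methyltransferase gene, fell from 1.16 ± 0.149 to 0.0628 ± 0.0567 CPM. PIE1, of the complex that deposits H2A.Z, and the chaperone gene NAP1;1 rose in the mutant (1.2 and 0.67).

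Of the 8 other histone genes listed, 3 could be tested. AT1G08170, annotated as H2B, was higher in tr libraries, from 0.203 ± 0.0604 to 2.70 ± 2.16 CPM in wild type and from 0.196 ± 0.181 to 6.75 ± 7.78 in the mutant (adjusted p = 0.0223 and 0.00657 in edgeR). AT1G75600 passed as lower in wild type (adjusted p = 0.0399), from 0.522 ± 0.0874 CPM in AtWT to 0 in all AtWTtr libraries. HTR12, the centromeric H3, was not called (-0.57 and -0.63 on the log2 scale).

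**Figure D4:**
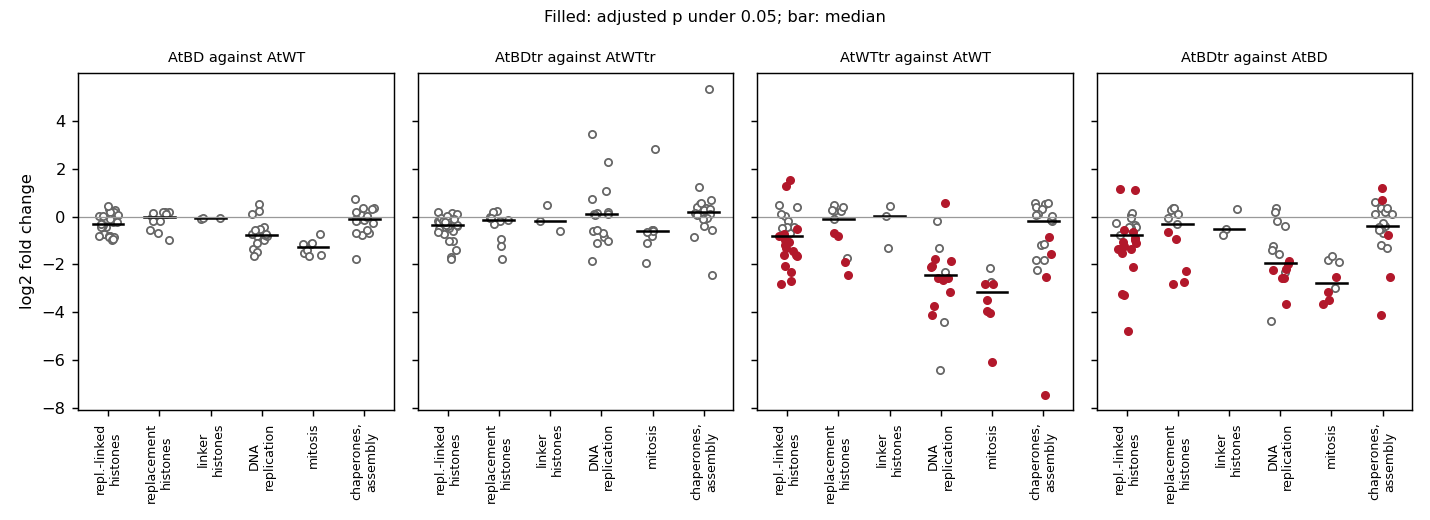
log2 fold change (y axis) of each tested gene in the 3 histone kinds and in the lists of DNA replication, mitosis and histone chaperones with chromatin assembly, for 4 comparisons of the second set (panels). Red points passed the adjusted p of 0.05 and bars are medians; the lowest point, TSK in AtWTtr against AtWT, has 0 counts in all AtWTtr libraries and its position is a fitted value. The mitosis medians are -3.15 and -2.76 in the tr contrasts.

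Markers of seed tissues and other organs moved with the same contrasts, against the shares of all genes given above. The 4 storage genes of the embryo rose in both tr contrasts, while 5 of 5 seed coat genes fell in wild type and 4 of 5 in the mutant. Summed CPM of the seed coat genes ranged from 563 to 869 in AtWT, 246 to 469 in AtBD, 29.1 to 52.5 in AtWTtr and 28 to 56.1 in AtBDtr, with at most 2 of 5 at 0 counts in a tr library. The endosperm sum of 3 genes was 25.4 to 29.1 CPM in AtWT and 6.58 to 13.4 in AtBD. It was 1.35 to 5.13 in AtWTtr and 0.391 to 3.69 in AtBDtr, with 2 of 2 tested genes lower in both genotypes. PHE1 was too scarce to test, at 0 to 0.61 CPM in AtWT, 0 to 0.277 in AtBD and 0 in all tr libraries. Of 5 silique wall genes, 4 and 5 fell, and their sum was 58.6 to 74.1, 44 to 64.2, 8.15 to 10.1 and 8.76 to 9.81 CPM in the same order of groups. The 4 leaf genes, of which 2 fell in each tr contrast, summed to 3505 to 4615, 2708 to 3328, 1453 to 4525 and 892 to 2479 CPM. The 4 pollen genes, of which 2 and 0 of 3 tested fell, summed to between 1.3 and 14.7 CPM in any library. Their part in the histone differences was not tested.

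In the first set, 0 of the 40 loci that carry a histone identifier passed in badc-tdna13 against COL0. Of the 41 members, 32 had a locus of their own in the deposited table, and 9 (the 8 H3 genes and HTB2) did not. The 40 loci include 4 with the identifier of AT3G27360, called H3.1-labelled here, 3 with that of AT4G40030, called H3.3-labelled, and 1 more with that of HTB9. The fit used COL0 and badc-tdna13 replicates 0 and 1, and in edgeR 11.3% of 18518 loci were called, 5.74% higher and 5.56% lower. DESeq2 called 4 of the 40, all lower, where it called 11.4% of all loci, 6.32% higher and 5.09% lower. The median log2 fold change was -0.37 over the 40 loci and 0.00 over all loci, and 33 of the 40 were negative. The mutant libraries lay wholly below COL0 for 18 of the 40 loci and wholly above for 1, where 30.2% and 32.7% of all loci did so. The count of all loci called moved with single libraries, from 2092 to 19 without COL0 replicate 0, 2 without COL0 replicate 1, 7554 without badc-tdna13 replicate 0 and 4924 without badc-tdna13 replicate 1, and to 0 with all 6 libraries.

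The lowest adjusted p (0.055 in edgeR) was that of an H3.1-labelled locus, with 8.95 and 10.8 CPM in COL0 and 5.54 and 3.05 in badc-tdna13 (-1.23, SE 0.31, on the log2 scale). AT3G45930 (H4), with the lowest log2 fold change (-1.24), had 24 and 27.5 CPM in COL0 and 16.3 and 5.99 in badc-tdna13. The mutant libraries were below both COL0 libraries at these loci. HTA11 (H2A.Z) had the highest value (1.42), with 11.5 and 14 CPM in COL0 but 67.4 and 3.05 in badc-tdna13. AT3G53650 (H2B, 1.22) had 2.88 and 4.99 CPM in COL0 and 13.5 and 5.25 in badc-tdna13.

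The mutant libraries of this set differed from each other. The badc-tdna13 replicate 0 had a median log2 ratio of 0.01 to the COL0 mean over the 40 loci, and replicate 1 had -0.98, with 39 of 40 below that mean. The library held in common by the groups, left out above, was at -1.16, with 40 of 40 below. Over the 26 replication-linked loci the medians were -0.15 in replicate 0, -1.25 in replicate 1 and -1.27 in the shared library, and over the 11 replacement loci they were 0.14, -0.58 and -0.78. HTB4 had 562 and 559 CPM in COL0, 416 and 242 in badc-tdna13 and 229 in the shared library. The summed ratio of replication-linked to replacement loci was 0.904 and 1 in COL0, 0.859 and 0.675 in badc-tdna13 and 0.751 in the shared library. Without badc-tdna13 replicate 0 the fit called 33 of the 40 loci, all lower, and without replicate 1 it called 15, of which 6 were higher. In these fits 39.9% of all loci were called (21% lower) and 25.6% (13.3% higher), and the lone library is assumed to vary like the COL0 libraries. With all 6 libraries 0 loci passed.

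**Figure D5:**
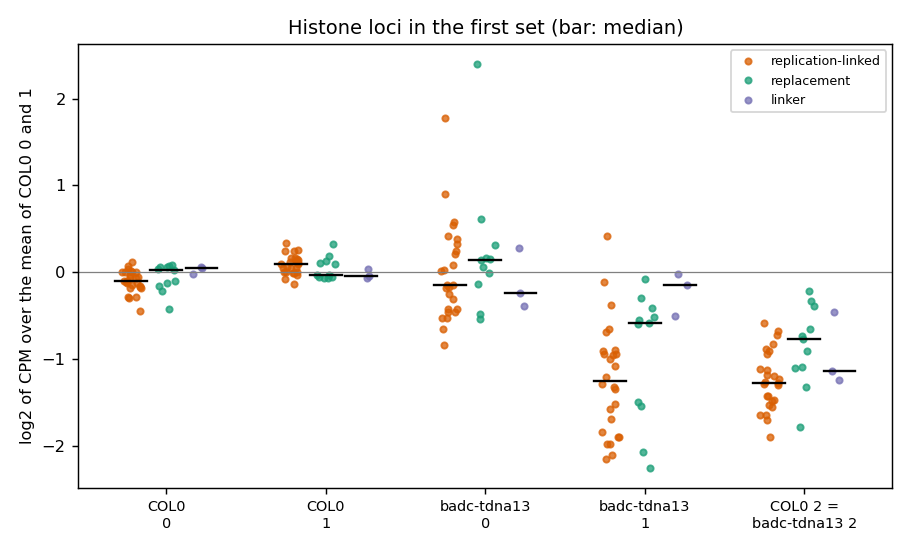
log2 of the CPM of each of the 40 histone loci (points, coloured by kind) over the mean of COL0 replicates 0 and 1 (y axis), in the 5 distinct libraries of the first set (x axis), with medians as bars. Values of badc-tdna13 replicate 0 lie around 0, and those of badc-tdna13 replicate 1 and of the library shared by both groups lie mostly below it.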

How the data were processed

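PolyA RNA of developing seeds was sequenced in 18 libraries of 6 groups. The authors deposited, for the second set, raw counts of genes, which equal the unstranded column of their per-library count files in all 12 libraries; the aligner and counter behind those files are not given in the sources used here, and the strand columns split evenly although the kit is labelled stranded. For the first set the authors deposited expected counts (fragments per locus, 1633 of 199206 not whole, rounded here) and FPKM values scaled by Cuffdiff, per the file headers. TopHat, Cufflinks, Cuffdiff and TAIR10 are named without versions in the submitters' processing notes, and the deposited tables hold no sample columns of other series. The first set's replicate numbers 0 to 2 are those of the table, matched to groups by condition only. Loci of this set were matched to members by the deposited identifiers. A locus was a member's own if at least 3 of up to 10 neighbouring loci carried nearby identifiers of the same chromosome. It also had to be the only locus with that identifier to meet this rule. Libraries were called equal within a tolerance of 0.5 fragments.

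After filterByExpr removed genes of low counts and TMM set the scale, edgeR 4.0.16 in R 4.3.3 fitted the 12 libraries of the second set together, and 4 of the first set, with robust quasi-likelihood tests at an adjusted p of 0.05. CPM is counts over the TMM-scaled total, and per kb divides by the annotated exon length. The pipeline was tested on simulated data. Alternatives were RLE scaling, plain library totals, DESeq2 1.42.0, other filters, a table of nuclear genes, limma 3.58.1 on log2(FPKM + 1) or log2(FPKM + 0.1), fits of only the libraries compared, the replicate number as a block and leaving out each library. Plain totals, and all 6 libraries for the sums of the first set, were chosen after seeing the data.

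The members and gene lists were chosen with earlier results of these data known. Values in every library are given for the member with the highest mean count of each class, for members past the threshold up to the 6 smallest adjusted p-values per comparison and direction, for the 2 largest rises and the 2 largest falls per comparison, and for the H1 and H3.3 genes; of other lists, up to 4 genes with the smallest adjusted p per comparison are named. Other members, and RNR2A, were named after their values were seen. AT5G07280 and AT3G19820, annotated otherwise, were left out of the endosperm list, and MGH3 is in both the pollen and the other-histone list.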

Additional observations from a re-analysis of the deposited data

How the results depend on the processing

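In the tr contrasts, 22 members were called in wild type and 22 in the mutant, and 13 of each were called under all 14 alternatives. The counts ranged from 18 to 24 in wild type and from 19 to 25 in the mutant under the alternatives other than plain totals and left-out libraries, and from 15 to 23 and from 15 to 18 when 1 library was left out. Plain library totals gave 36 (1 higher and 35 lower) in wild type and 33 (0 higher) in the mutant, with the median of all genes moved from -0.04 to -0.99 and from -0.03 to -0.73. Under plain totals, values that were positive with TMM turned negative and passed in wild type for AT1G07820 (-0.82), AT3G09480 (-0.90), AT4G40030 (-0.49), AT4G40040 (-0.59), AT5G10980 (-0.69), HTA9 (-0.73), HTA3 (-0.69) and AT1G06760 (-0.93), and in the mutant for HTB4 (-0.67) and AT5G10980 (-0.65). With the replicate number as a block, 19 members were called in each tr contrast and 0 in the other comparisons of the second set. Deviations of same-numbered libraries correlated above 0.1 in 0 of 3 pairs of each comparison. No pairing by number was seen, but so few libraries cannot exclude a batch shared by same-numbered libraries. The genotype comparisons of the second set and the genotype difference called 0 members under every alternative run. In the mutant, HTA1 lost its call with plain totals (adjusted p = 0.236).

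In the first set the count of 0 became 7 with plain totals, 4 with DESeq2 and 1 without the filter, and ranged from 0 to 33 when 1 library was left out; the cause was not tested. Of all loci, 11.9% were called with plain totals, 11.4% with DESeq2 and 9.37% without the filter. When 1 library was left out, the log2 fold change ranged from -2.06 to 2.34 for HTA11, from -0.38 to 0.50 for AT2G28720, from -0.93 to 0.84 for AT2G37470 and from -0.96 to 0.37 for AT3G53730. The first 3 turned negative and passed without badc-tdna13 replicate 0, and AT3G53730 turned positive and passed without badc-tdna13 replicate 1. No paired analysis was possible because the first set's numbers are not tied to sample titles.

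Counts of all genes called moved by over 1.5 times as follows. AtBD against AtWT called 12 genes, but 77 with DESeq2, 26 without the filter, 288 with the libraries compared alone and 6 to 8 when 1 library was left out. AtBDtr against AtWTtr called 10, but 21 with DESeq2 and 5 with the libraries compared alone. AtWTtr against AtWT called 6616, but 10597 with plain totals, and the genotype difference 0, but 4 with DESeq2. The first set called 2092, but 10 and 169 with log2(FPKM + 1) and log2(FPKM + 0.1), and its counts for other libraries are given with its results.

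The summed levels depend on what is summed and on scaling, by construction. With plain totals the replication-linked sums were 1944, 1529, 942 and 809.8 CPM in AtWT, AtBD, AtWTtr and AtBDtr and 1589 in COL0, and the replacement sums 1510, 1379, 882 and 894 and 1670. Over nuclear counts they were 1948, 1533, 942 and 809.8, and 1513, 1383, 882, 894 and, for replacement in COL0, 1710. Without H2B the replication-linked sums were 692, 588, 546 and 487 and, in COL0 and badc-tdna13, 692 and 498, and the ratios 0.657, 0.527, 0.463, 0.400, 0.392 and 0.323. With H3.3 and H2A.Z as the replacement genes, their sums were 844, 937 and 1054 in AtWT, AtBD and AtWTtr and 1566 in COL0, and the ratios 1.59, 1.32 and, in AtBDtr and COL0, 1.004 and 1.08. The median member had 33.7, 25.5, 16.8 and 15.4 CPM among replication-linked genes (36.1 and 24.2 in COL0 and badc-tdna13), 48.5, 37.7, 34.4 and 31.1 among replacement genes (52.2 and 55.5), and ratios of 0.719, 0.677, 0.484 and 0.501 (0.693 and 0.414). With all 6 libraries the COL0 sums were 1371 and 1510. When 1 mutant library of the first set was left out, the replication-linked sum of badc-tdna13, 1173 CPM, ranged from 801.6 to 1544. Depth limits AT5G02570, AT3G27360 and AT3G53650, which have 348, 731 and 1094 counts over the 12 libraries.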
